A study of Mus musculus with 17 samples.

Results

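The genes described here encode the proteins of the cytosolic ribosome. Members were the rows of 3 deposited count tables whose gene number maps to a protein-coding mouse symbol of the form Rpl, Rps or Rplp with a number, or to Rpsa; pseudogenes, Rik names and the S6 kinases were left out. Of 27179 rows, 89 were members. They comprised 31 genes of the 40S subunit, 43 of the 60S subunit, the 3 stalk genes Rplp0, Rplp1 and Rplp2, 10 paralogs or retrocopies, and 2 genes whose symbols fit although their products are not ribosomal subunits (Rps19bp1 and Rps23rg1). Fau and Rack1 encode ribosomal subunits under other names, fall outside the rule and were followed apart from the members.

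RNA was taken from colon preparations of C57BL/6(h-2b) mice aged 8 weeks, deficient in MCJ (KO) or wild type (WT). MCJ is the product of Dnajc15, an inner-membrane protein of mitochondria that restrains complex I. In the PP groups (3 KO and 3 WT libraries) mice received a broad-spectrum antibiotic for 7 days and then dextran sulfate sodium (DSS), which injures the colonic epithelium, for 6 days. In the NP groups (3 KO and 3 WT) they received DSS for 6 days without antibiotic, and for the NN groups (2 KO and 3 WT) no treatment is named. Each library carries 1 mouse number, and p-values measure the spread between these libraries. The labels do not say how the MCJ-deficient line was made.

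The 17 libraries held 29194744 to 37083344 counts, of which 16839780 to 27127897 came from nuclear genes. Dnajc15 had 0.811 to 4.95 counts per 1e6 nuclear counts (CPM) in KO libraries and 21.1 to 72.1 CPM in WT libraries, so no library went against its label. The source is labelled colon macrophages, taken from colon tissue by washing and collagenase digestion, and no sorting step is named. The 12 colonocyte markers summed to 11348 to 34491 CPM in every library. The 14 macrophage markers summed to 842 to 6496 CPM in PP, 116 to 2126 CPM in NP and 12.1 to 45.9 CPM in NN; Cd163 was at 0 in both NN groups and Aif1 in WT NN. The labels give no sex; Xist, the RNA of the inactive X chromosome in females, had 0 to 0.356 CPM in KO PP and 0.106 to 0.109 CPM in WT PP, 0 to 202 CPM in KO NP and 0 to 0.359 CPM in WT NP, and 312 to 331 CPM in KO NN and 0.0594 to 115 CPM in WT NN. Its part in the comparisons was not tested. Every library held epithelial transcripts, and in such bulk samples fewer cells of a type and less RNA per cell cannot be told apart.

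Each ribosome contains 1 copy of nearly every subunit, and cells keep the mRNAs of these proteins at coordinated levels. In mammals most of them begin with a terminal oligopyrimidine (TOP) tract, a C at the cap followed by more pyrimidines, through which mTORC1 and the cap-binding protein LARP1 control their translation. In the colon the dividing cells of the crypt base make ribosomes at a high rate, as do activated immune cells and plasma cells.

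The start sites of 5 members are shown because the results turn on these genes and because the TOP tract is the feature that the family is known for. Each sequence runs 5′ to 3′ from 20 bases before the RefSeq start (build GRCm38.p6) to 25 bases from it, and capitals mark the longest run of C and T. Rpl4 lies at chr9:64173367-64173411 on the plus strand. Rps6 lies at chr4:86857343-86857387 on the minus strand. Rpl9 lies at chr5:65391407-65391451 on the minus strand. Rpl18 lies at chr7:45718051-45718095 on the plus strand. Rpl15 lies at chr14:18270962-18271006 on the minus strand.
Rpl4: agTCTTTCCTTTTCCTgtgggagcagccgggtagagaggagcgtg
Rps6: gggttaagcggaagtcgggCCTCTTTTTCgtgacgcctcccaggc
Rpl9: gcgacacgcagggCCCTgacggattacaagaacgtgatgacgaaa
Rpl18: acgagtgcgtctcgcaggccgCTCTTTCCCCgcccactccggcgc
Rpl15: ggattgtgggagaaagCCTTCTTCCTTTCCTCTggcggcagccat

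The run spans 14 bases in Rpl4, 10 in Rps6, 4 in Rpl9, 10 in Rpl18 and 17 in Rpl15. In Rpl4 and Rpl9 it ends before the annotated start and so lies outside the annotated transcript. The promoter table held windows for 69 of the 89 members, 81 windows in all. A C at the annotated start followed by 4 bases that are each C or T was found in 15 of the 81 windows (18.5%), against 2.51% of all 32851 windows. Over the stretch from 20 bases before the start to 30 bases from it, a run of at least 8 C or T was found in 45.7% of member windows and 19% of all windows. The motif CTTTC was found there on the transcript strand in 29.6% of member windows and 6.57% of all windows, and on the other strand in 8.64% and 6.3%. Such matches describe letters in these windows and depend on the annotated start base.

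Together the 89 members took 5.45, 5.00 and 7.48% of nuclear counts in KO PP, 7.15, 7.81 and 8.72% in WT PP, 7.77, 7.25 and 7.26% in KO NP, 8.09, 8.00 and 9.22% in WT NP, 8.89 and 6.58% in KO NN, and 7.85, 9.99 and 8.15% in WT NN. The lowest shares were those of KO PP libraries 22 and 23, and the highest was that of WT NN library 2. The group means were 5.98 ± 1.32% in KO PP (SD, n = 3) and 7.89 ± 0.79% in WT PP (n = 3), 7.43 ± 0.30% in KO NP and 8.44 ± 0.68% in WT NP (n = 3 each), and 7.74 ± 1.64% in KO NN (n = 2) and 8.66 ± 1.16% in WT NN (n = 3). The KO and WT ranges overlapped in PP and in NN and did not overlap in NP. With all counts as denominator the NP ranges did overlap, at 3.70 to 5.14% in KO and 4.73 to 6.24% in WT. Mitochondrially encoded genes took 25.4 to 35.2% of all counts in KO PP and 38.7 to 48.4% in WT PP, 33.8 to 49.0% in KO NP and 32.2 to 40.9% in WT NP, and 23.1 to 28.4% in KO NN and 38.9 to 50.4% in WT NN. With all counts as denominator the mean share of the members was 5.78% in KO NN and 4.87% in WT NN, so the order of the genotypes in NN depends on the denominator. These shares sum over the members and were given no test. Among the members are Rps27rt, Rpl37rt and Rps23rg1, whose counts followed those of Rps27, Rpl37 and Rps23. Some reads may therefore enter the shares more than once, which was not tested. Libraries 22 and 23 of KO PP also stood apart in red blood cell markers, with a summed 12436 and 16007 CPM against 6.25 to 1003 CPM in all other libraries; their part in the low shares was not tested.

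The 2 subunits kept an almost fixed proportion. The ratio of 40S counts to 60S and stalk counts lay between 0.686 and 0.749 in all 17 libraries, although the total share varied over a wider range. The 40S genes took 1.98 to 3.94% of nuclear counts, the 60S genes 2.45 to 4.72% and the 3 stalk genes 0.340 to 0.788%.

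**Figure D1:**
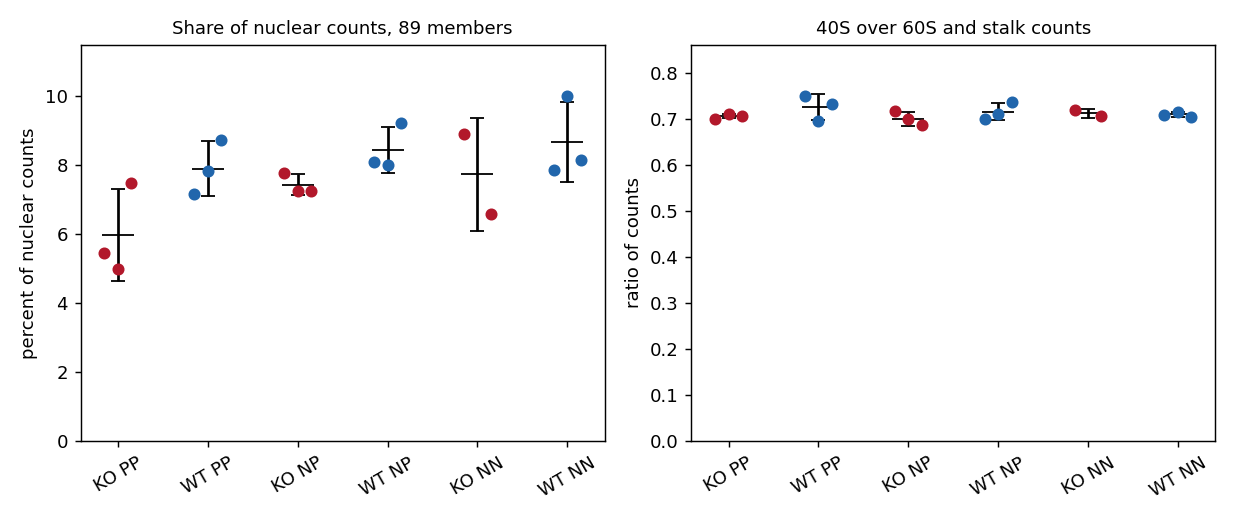
Share of nuclear counts taken by the 89 members (left, percent) and the ratio of 40S to 60S and stalk counts (right) in 17 libraries. Red points are KO and blue points WT libraries, and black marks are the group mean ± SD. The share runs from 5.00 to 9.99%, while the ratio stays between 0.686 and 0.749.

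Single genes differed far more in level. Per kilobase of coding sequence, the median of the 77 genes of the 40S, 60S and stalk was 1896 CPM, averaged over the libraries. Among the lowest levels on this scale were those of Rpl39 (88.9), Rpl21 (182) and Rps2 (313 CPM per kilobase), and the highest were those of Rps29 (5810) and Rpl41 (19066 CPM per kilobase). Rpl41 encodes the smallest ribosomal protein, with a coding sequence of 75 bases, so its untranslated parts weigh heavily in that ratio. Many members have near copies elsewhere in the genome. Of all 50-base windows in a GENCODE transcript of each gene, the median of the 77 genes had 52.1% that also occur in transcripts of other genes, and 76 of the 77 had at least 1 such window. Rpl39 had 16.2% and Rps2 had 79.0%. How reads that fit several genes were counted is not given in the sources used here, so the level of single members is uncertain.

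Among treated and untreated wild-type mice, the members were lower on the whole after antibiotic and DSS. In WT PP over WT NN, 12 of 87 members tested fell and 1 rose (edgeR quasi-likelihood test, Benjamini-Hochberg adjusted p under 0.05). Of all 16958 genes tested, 20.1% were called in this comparison, 7.31% lower and 12.8% higher. The median log2 fold change of the members was -0.52, against 0.27 over all genes tested, and 78 of 87 members had a negative value. At an unadjusted p under 0.05, 40 members were lower and 2 higher, where 12.3% of all genes were lower and 21.8% higher. Those that fell were 6 genes of the 60S subunit (Rpl9, Rpl18, Rpl37, Rpl31, Rpl15 and Rpl41), 3 of the 40S (Rps14 and Rps21 among them), the stalk gene Rplp1, the paralog Rpl22l1 and Rpl37rt, a near copy of Rpl37. Rpl4 was the 1 member that rose.

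Rpl9, a protein of the 60S subunit near the base of the stalk, was the member with the smallest p. It had 500, 526 and 739 CPM (scaled by the trimmed mean of M-values, TMM, as are all CPM of single members below) in KO PP and 700, 634 and 778 CPM in WT PP. It had 611, 795 and 829 CPM in KO NP, 1101, 863 and 783 CPM in WT NP, 1121 and 932 CPM in KO NN, and 1520, 1605 and 1155 CPM in WT NN. In both genotypes every PP library lay below every NN library. The log2 fold change of PP over NN was -1.02 ± 0.24 (SE) in WT (edgeR adjusted p = 0.00564) and -0.80 ± 0.26 in KO, where it missed the threshold (edgeR adjusted p = 0.0571). Rpl9 was the 1 member called in WT under every alternative and with each of the 6 WT libraries left out, with adjusted p between 0.000411 and 0.0257. Other transcripts share 93.3% of its 50-base windows, those of 13 pseudogenes among them, so the value can include reads of near copies.

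Rpl18, another 60S protein, had 461, 484 and 558 CPM in WT PP and 922, 1429 and 788 CPM in WT NN. The WT groups did not overlap, and library 2 of WT NN was the highest. Its log2 fold change was -1.06 ± 0.27 in WT (edgeR adjusted p = 0.00892) and -0.38 ± 0.29 in KO (edgeR adjusted p = 0.486). Rplp1, 1 of the acidic proteins of the stalk that recruits elongation factors, had 890, 1082 and 1118 CPM in WT PP and 1710, 2791 and 1467 CPM in WT NN. These groups did not overlap either, and the log2 fold change was -0.95 ± 0.30 (edgeR adjusted p = 0.031). Rps14, a 40S protein whose human counterpart is linked to the anaemia of 5q deletion, had 571, 537 and 707 CPM in WT PP and 1024, 1690 and 850 CPM in WT NN, and its log2 fold change was -0.97 ± 0.29 (edgeR adjusted p = 0.0255). For other members that fell, the log2 fold changes were -1.02 (Rpl37rt), -1.01 (Rpl37), -0.87 (Rpl41), -0.84 (Rps21), -0.81 (Rpl31), -0.75 (Rpl22l1) and -0.72 (Rpl15).

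Rpl4, a large 60S protein that lines the exit tunnel, went the other way. It had 848, 764 and 1006 CPM in KO PP and 845, 859 and 915 CPM in WT PP. It had 677, 732 and 867 CPM in KO NP, 685, 730 and 323 CPM in WT NP, 867 and 599 CPM in KO NN, and 542, 430 and 471 CPM in WT NN. Every WT PP library lay above every WT NN library, whereas the KO ranges overlapped. The log2 fold change of PP over NN was 0.86 ± 0.27 in WT (edgeR adjusted p = 0.0337) and 0.25 ± 0.30 in KO (edgeR adjusted p = 0.704). Without WT NN library 1, Rpl4 stayed called (log2 fold change 0.96, edgeR adjusted p = 0.0498). With any other WT PP or WT NN library left out, it was not called.

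In KO mice the same contrast gave no call: 0 of 87 members had an edgeR adjusted p under 0.05, against 10.3% of all genes, 6.52% higher and 3.77% lower. At an unadjusted p under 0.05, 3 members were lower and 0 higher, where 10% of all genes were lower and 13% higher, and DESeq2 called 0. The median was -0.18 for the members and 0.06 for all genes. The lowest values were those of Rpl9, given above, Rps21 (log2 fold change -0.69, edgeR adjusted p = 0.187) and Rpl13 (-0.65, edgeR adjusted p = 0.163), and the highest among members with counts in every library was that of Rpl7l1 (0.37, edgeR adjusted p = 0.512). Without KO PP library 24, 3 members were called lower (Rpl9, Rps26 and Rps27l), and with library totals 2 were (Rpl9 and Rps21). The median of the 77 subunit genes, -0.18 with all libraries, was -0.49 without KO PP library 24, -0.071 and -0.089 without libraries 22 and 23, -0.39 without KO NN library 14 and 0.037 without KO NN library 13, so its sign rests on that library. Colonocyte markers summed to 11348 to 13514 CPM in KO PP and 26800 to 34347 CPM in KO NN, and macrophage markers to 2559 to 3007 CPM in KO PP and 39.2 to 45.9 CPM in KO NN. Xist had 0 to 0.356 CPM in KO PP and 312 to 331 CPM in KO NN. Their part in these values was not tested. Whether the 2 genotypes differ was tested as the difference of the MCJ effect between PP and NN. This contrast was added after the data were seen. In it 0 of 87 members passed (edgeR, smallest adjusted p 0.63), 0 had an unadjusted p under 0.05 and DESeq2 called 0. Of all genes, 0.0531% passed (0.0236% higher, 0.0295% lower). The 13 calls in WT are thus not shown to be particular to wild-type mice.

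The WT calls rest on single libraries to a large extent. Without WT NN library 2, which had the fewest genes with at least 10 counts (10075, against 12383 to 14790 in the others) and the highest share, 1 member stayed called, Rpl9, and the median was -0.30 against 0.21 over all genes. Without library 3 of WT NN, 21 were called, all lower, and without WT PP libraries 10, 11 and 12 the counts were 2, 3 and 5. With library totals in place of TMM, 2 members were called higher and 1 lower, and the medians were -0.16 for the members and 0.61 for all genes. The distance between the medians of the 77 subunit genes and of all genes was -0.80 with TMM and -0.77 with library totals. Colonocyte markers summed to 13163 to 22914 CPM in WT PP and 24392 to 33074 CPM in WT NN, and macrophage markers to 842 to 6496 CPM in WT PP and 12.1 to 41.3 CPM in WT NN. Their part in the lower values was not tested.

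Some members with known roles apart from bulk translation, Rpsa, Rps19 and Rpl11 among them, also had lower mean levels in WT PP than in WT NN. Others went the other way without overlap. Rpl5 had 809 to 923 CPM in WT PP and 711 to 780 CPM in WT NN. Rps6 had 774 to 907 CPM in WT PP and 634 to 714 CPM in WT NN. Those named here did not pass the threshold in this contrast with all libraries. Without WT NN library 3, Rpl11 did (log2 fold change -0.75, edgeR adjusted p = 0.0408). The 40S protein Rpsa, which also serves as a laminin receptor, had 1164 to 1339 CPM in WT PP and 1427 to 2245 CPM in WT NN. Rps19, which is mutated in Diamond-Blackfan anaemia in humans, had 344 to 428 CPM in WT PP and 399 to 617 CPM in WT NN. Rpl11, which with Rpl5 binds and inhibits Mdm2 when ribosome assembly is disturbed, had 537 to 562 CPM in WT PP and 651 to 1079 CPM in WT NN. The ranges of Rpsa and Rpl11 did not overlap, and those of Rps19 did. Rplp0, the scaffold of the stalk, had 1579 to 1727 CPM in WT PP and 1686 to 2759 CPM in WT NN, with overlap, and Rps3, a 40S protein at the mRNA entry, had 746 to 880 CPM in WT PP and 868 to 1205 CPM in WT NN, also with overlap.

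**Figure D2:**
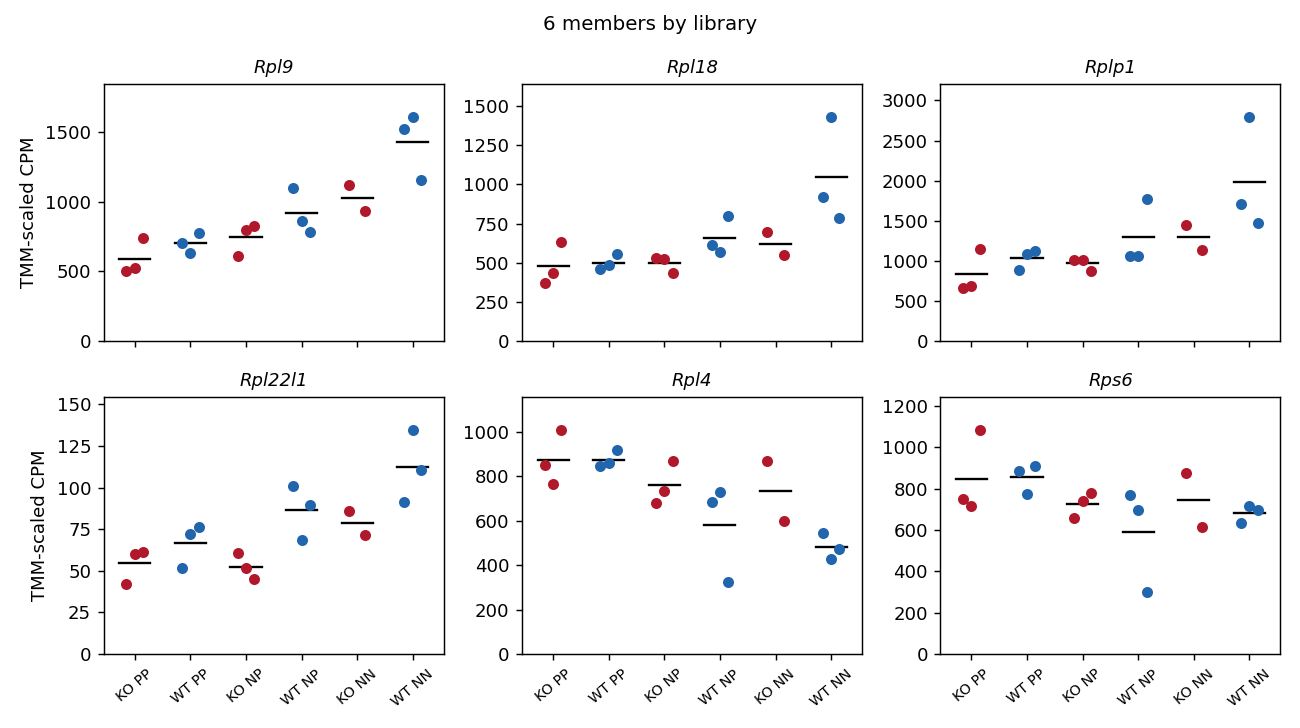
TMM-scaled CPM of 6 members in the 17 libraries, by group (red KO, blue WT, black line the group mean). Rpl9 lies lower in every PP library than in any NN library of the same genotype, Rpl4 is higher in WT PP than in WT NN, and WT NP library 9 is the lowest library for Rpl4 and Rps6.

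DSS without antibiotic gave no called member in either genotype. In WT NP over WT NN, 0 of 87 members passed (edgeR; 2.44% of all genes did, 2.25% higher and 0.195% lower), 15 were lower and 1 higher at an unadjusted p under 0.05 (4.26% and 11.6% of all genes), and DESeq2 called 1, Rps15 (log2 fold change -0.90, DESeq2 adjusted p = 0.0496). The median was -0.38 for the members and 0.14 for all genes. The lowest values in edgeR were those of Rps15 (-0.86 ± 0.29, adjusted p = 0.145), Rpl28 (-0.77 ± 0.28, adjusted p = 0.194) and Rps29 (-0.75 ± 0.29, adjusted p = 0.214). The highest were those of Rpl7l1 (0.76 ± 0.27, edgeR adjusted p = 0.177) and Rpl4 (0.27 ± 0.27, edgeR adjusted p = 0.676). With library totals the median of the members was 0.13 against 0.63 over all genes, so its sign depends on the scaling while its place below the median of all genes does not. Without WT NN library 2 the median of the 77 subunit genes was -0.15, against -0.40 with all libraries.

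In KO NP over KO NN, 0 of 87 members passed (edgeR; 2.08% of all genes did, 2.04% higher and 0.0354% lower), with 1 lower and 0 higher at an unadjusted p under 0.05 (1.71% and 6.56% of all genes) and 0 called by DESeq2. The median was -0.23, against 0.02 over all genes, and 81 members had a negative value. The median of the 77 subunit genes, -0.23, was -0.015 without KO NN library 13 and -0.43 without KO NN library 14. Rps21 (-0.59) and Rpl22l1 (-0.59) were the lowest of the members with counts in every library and Rpl7l1 (0.31) the highest. None of them passed the threshold (edgeR adjusted p 0.67, 0.595 and 0.933). Rpl22l1 was the 1 that was lower at an unadjusted p under 0.05. For Rpl9 the log2 fold change of NP over NN was -0.64 ± 0.24 in WT (edgeR adjusted p = 0.193) and -0.46 ± 0.26 in KO (edgeR adjusted p = 0.71).

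Antibiotic before DSS, set against DSS alone, changed no member past the threshold. In WT PP over WT NP, 0 of 87 passed (edgeR; 4.41% of all genes did, 3.49% higher and 0.926% lower), 1 was lower and 2 higher at an unadjusted p under 0.05 (6.39% and 10.3% of all genes), and DESeq2 called 0. The median was -0.17 for the members and 0.06 for all genes; that of the 77 subunit genes was -0.091 without WT NP library 9 and -0.090 without WT PP library 11. The lowest member was Rps27l (-0.78 ± 0.31, edgeR adjusted p = 0.197), a paralog of Rps27 that p53 induces, and the highest with counts in every library were Rpl4 (0.59 ± 0.27, edgeR adjusted p = 0.281) and Rps6 (0.54 ± 0.29, edgeR adjusted p = 0.381). In KO PP over KO NP, 0 of 87 passed (edgeR; 1.73% of all genes did, 1.34% higher and 0.389% lower), 0 were lower and 1 higher at an unadjusted p under 0.05 (5.9% and 8.36% of all genes), and DESeq2 called 0. The median was 0.05 for the members and 0.01 for all genes. Here Rps27l (-0.42, edgeR adjusted p = 0.606) and Rpl9 (-0.34, edgeR adjusted p = 0.563) were the lowest and Rps9 (0.37, edgeR adjusted p = 0.591) the highest of the members with counts in every library. Without KO PP library 24 the median was -0.23 and Rps27l was called (log2 fold change -0.98, edgeR adjusted p = 0.0455). In that library Rps27l had 99.6 CPM, against 30.9 and 51.4 CPM in libraries 22 and 23.

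Loss of MCJ was compared with wild type within each condition. In NP, 75 of 86 members tested were lower in KO than in WT and 23 of them had an unadjusted p under 0.05, where 3.26% of all genes were lower at that level; 0 members and 5.98% of all genes were higher. After adjustment 0 of 86 passed (edgeR; 1% of all genes did, 0.983% higher and 0.0208% lower), and DESeq2 called 0. The median was -0.35 for the members and 0.03 for all genes. Rpl22l1, a paralog of Rpl22 known in T cell development, had 61.0, 51.4 and 44.9 CPM in KO NP and 101, 68.6 and 89.5 CPM in WT NP. These groups did not overlap, and the log2 fold change was -0.72 ± 0.23 (edgeR adjusted p = 0.292). Rpl38, a small 60S protein whose loss in mice alters the axial skeleton, had 206, 208 and 188 CPM in KO NP and 310, 248 and 373 CPM in WT NP. Its groups did not overlap (log2 fold change -0.63 ± 0.21, edgeR adjusted p = 0.324), nor did those of Rps27l (-0.63 ± 0.22, edgeR adjusted p = 0.372), which had 76.5, 96.6 and 69.8 CPM in KO NP and 130, 104 and 142 CPM in WT NP. Macrophage markers summed to 599 to 2126 CPM in KO NP and 116 to 169 CPM in WT NP, and plasma cell markers to 36.95 to 565 CPM in KO NP and 4.21 to 15.9 CPM in WT NP, in both cases without overlap. Their part in the lower values was not tested. The members with the highest values in this comparison were Rpl4 (0.39), Rps6 (0.30) and Rpl5 (0.24). Without WT NP library 9 those of Rps6 and Rpl5 were -0.015 and -0.067, and the median of the 77 subunit genes was -0.25 against 0.05 over all genes.

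In NN, 78 of 86 members were lower in KO than in WT and 0 passed (edgeR; 0 of 13559 genes did, 0%). At an unadjusted p under 0.05, 5 members were lower and 0 higher, where 4.79% of all genes were lower and 3.5% higher, and DESeq2 called 0. The median was -0.50 for the members and 0.08 for all genes with TMM, and 0.24 and 0.79 with library totals, so the members lay below the median of all genes in both and the sign of their own median did not hold. The median of the 77 subunit genes, -0.49 with TMM, was -0.74 and -0.27 without KO NN libraries 13 and 14 and -0.30 without WT NN library 2. The lowest values were those of Rps19bp1 (-0.95 ± 0.59, edgeR adjusted p = 0.804), Rpl28 (-0.80 ± 0.35, adjusted p = 0.623) and Rpl18 (-0.79 ± 0.32, adjusted p = 0.576), and the highest were those of Rpl4 (0.56 ± 0.25, adjusted p = 0.627) and Rpl13 (0.21 ± 0.24, adjusted p = 0.976).

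In PP, 0 of 87 members passed (edgeR; 0 of 14556 genes did, 0%), with 0 in either direction at an unadjusted p under 0.05 (2.21% of all genes were lower and 3% higher) and 0 by DESeq2. The median was -0.07 for the members and 0.01 for all genes. Rpl13 (-0.47, edgeR adjusted p = 0.963) and Rplp2 (-0.46, edgeR adjusted p = 0.963) were the lowest, and Rpl39 was the highest of those with counts in every library (0.17, edgeR adjusted p = 0.989). The 3 KO PP libraries differed among themselves: the median member lay 0.49 and 0.35 log2 units below its own median over all libraries in libraries 22 and 23 and 0.31 above it in library 24. The median of the 77 subunit genes in KO over WT, -0.077 with all libraries, was -0.37 without KO PP library 24, 0.019 and -0.026 without libraries 22 and 23, and -0.13, -0.16 and 0.0062 without WT PP libraries 10, 11 and 12, so its sign was not stable.

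Averaged over the 3 conditions, 81 of 87 members were lower in KO than in WT and 32 of them had an unadjusted p under 0.05, against 5.61% of all genes; 0 members and 8.1% of all genes were higher. After adjustment 0 passed (edgeR; 0.0059% of all genes did), and DESeq2 called 1. The median was -0.31 for the members and 0.08 for all genes. Rpl22l1 had the smallest p (log2 fold change -0.51 ± 0.15, edgeR adjusted p = 0.162; DESeq2 -0.54, adjusted p = 0.0233). Rps14 had the lowest log2 fold change in edgeR, by a small margin (-0.51 ± 0.18, edgeR adjusted p = 0.213). Rpl4 stood at 0.33 ± 0.16 (edgeR adjusted p = 0.376). The MCJ effect was not shown to differ between conditions for any member. The tests of its difference gave 0 of 87 members for NP minus NN (edgeR; 0% of all genes) and 0 for PP minus NP (0% of all genes), with 0 members at an unadjusted p under 0.05 in each and 0 by DESeq2. The members farthest from 0 with counts in every library were Rpl28 (0.73, edgeR adjusted p = 0.988) and Rpl7l1 (-0.45, adjusted p = 1) for NP minus NN, Rpl39 (0.67, adjusted p = 1) and Rpl13 (-0.55, adjusted p = 1) for PP minus NP, and Rpl13 (-0.75, edgeR adjusted p = 0.63) and Rpl28 (0.74, adjusted p = 0.687) for PP minus NN. The comparisons share libraries, so their medians are not independent of each other.

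**Figure D3:**
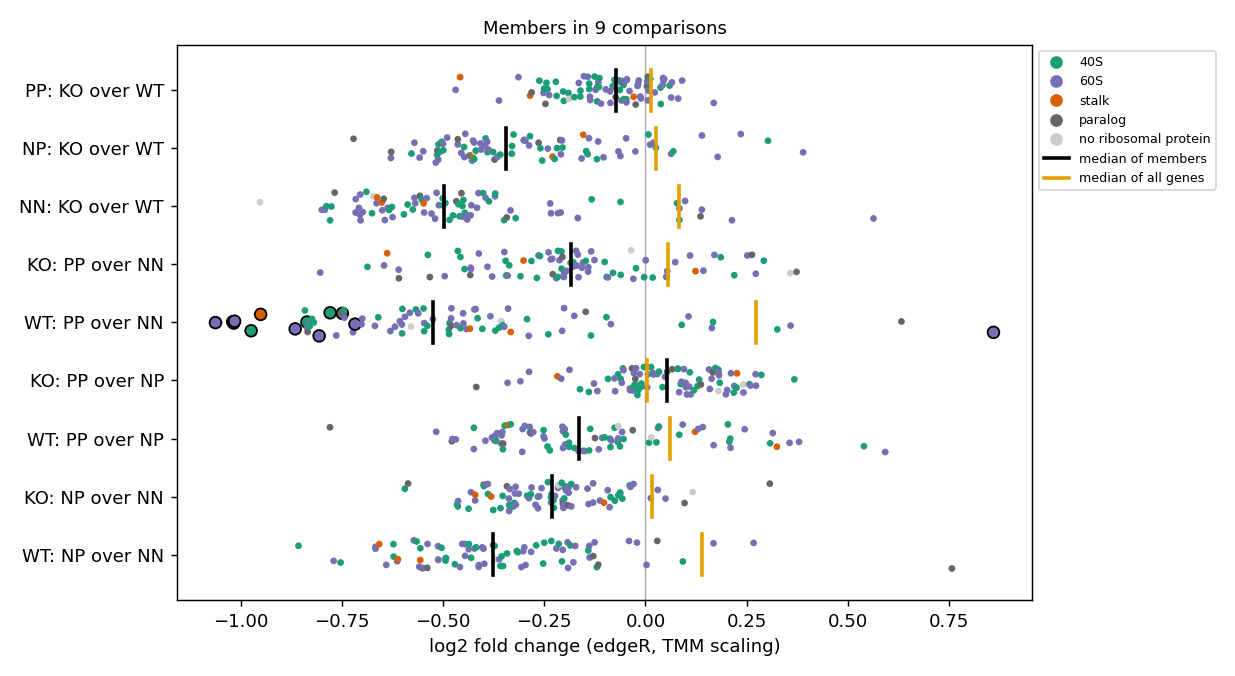
Log2 fold change (edgeR, TMM scaling) of each member in 9 comparisons, coloured by class; Rpl3l, with 0 counts in most libraries, is left out. Large outlined points passed the threshold, black lines are the median of the members and orange lines that of all genes tested. Called members appear in the row for WT PP over NN (12 lower, 1 higher), and in KO PP over NP the median of the members (0.05) lies above that of all genes.

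The members did not move as 1 block: those with long and those with short coding sequences parted in some libraries. The 77 subunit genes have coding sequences of 75 to 1257 bases. After each gene was set against its own median over the libraries and each library against its median gene, 1 component held 59.4% of the remaining variance. This component was not compared with coding length. The spread between genes was largest in WT NP library 9 and WT NN library 2 (SD 0.48 and 0.41 log2 units). In WT NP library 9 the 21 genes with the longest coding sequences (at least 612 bases) lay 0.67 log2 units below the 21 with the shortest (at most 375 bases), and in WT NN library 2 they lay 0.60 below. In the other WT NN libraries the distance was -0.27 and -0.18, in KO NN -0.14 and -0.05, and in the remaining 11 libraries it ran from -0.12 to 0.30. The pattern was seen after the values were known and was given no test.

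Single genes show its size. Rpl4 had its lowest value in WT NP library 9, as given above. Rps6, the 40S protein that S6 kinase phosphorylates, had 298 CPM in WT NP library 9, against 769 and 697 CPM in libraries 7 and 8 of the same group. Rpl3, a 60S protein next to the peptidyl transferase centre, had 300 CPM there, against 653 and 647 CPM, and Rpl5, which binds 5S rRNA with Rpl11, had 353 CPM there, against 840 and 793 CPM. Short members went the other way in that library: Rplp1 had 1777 CPM, against 1064 and 1067 CPM, and Rps29 had 771 CPM, against 512 and 478 CPM. The mitochondrial ribosomal proteins, which lie outside the rule, also showed a distance between their longest and shortest members, -0.45 in WT NP library 9 and -0.82 in WT NN library 2, but also -0.45 in WT NN library 1 and -0.29 in WT NP library 7; in all other libraries it ran from -0.15 to 0.29. RNA quality values were not among the labels, and whether RNA quality or library preparation differed there was not tested.

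Fold changes followed coding length in several comparisons, in some of them less so without these libraries. Across the 77 genes, Spearman's rho between coding length and log2 fold change was 0.55 in WT PP over NN, 0.53 in WT PP over NP and 0.27 in WT NP over NN. In KO mice, where neither library enters, it was 0.37 in PP over NN, 0.037 in PP over NP and 0.56 in NP over NN. For KO over WT it was 0.038 in PP, 0.59 in NP and 0.38 in NN. Genes share libraries and are not independent, so these are descriptions. In WT PP over NN the 21 genes with short coding sequences had a median of -0.76 and all 21 were negative, while the 21 with long ones had a median of -0.18 with 14 negative. In KO over WT in NP the medians were -0.45 (21 of 21 negative) and -0.07 (12 of 21 negative), and without WT NP library 9 they were -0.31 and -0.21, with a rho of 0.30. In WT PP over NP the medians were -0.30 and 0.12. Without WT NP library 9 they were -0.13 and -0.0079, with a rho of 0.27. Without WT NN library 2 the medians in WT PP over NN were -0.48 and -0.12, with a rho of 0.51. Rpl4, the member with the longest coding sequence, is the 1 that rose in that comparison.

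**Figure D4:**
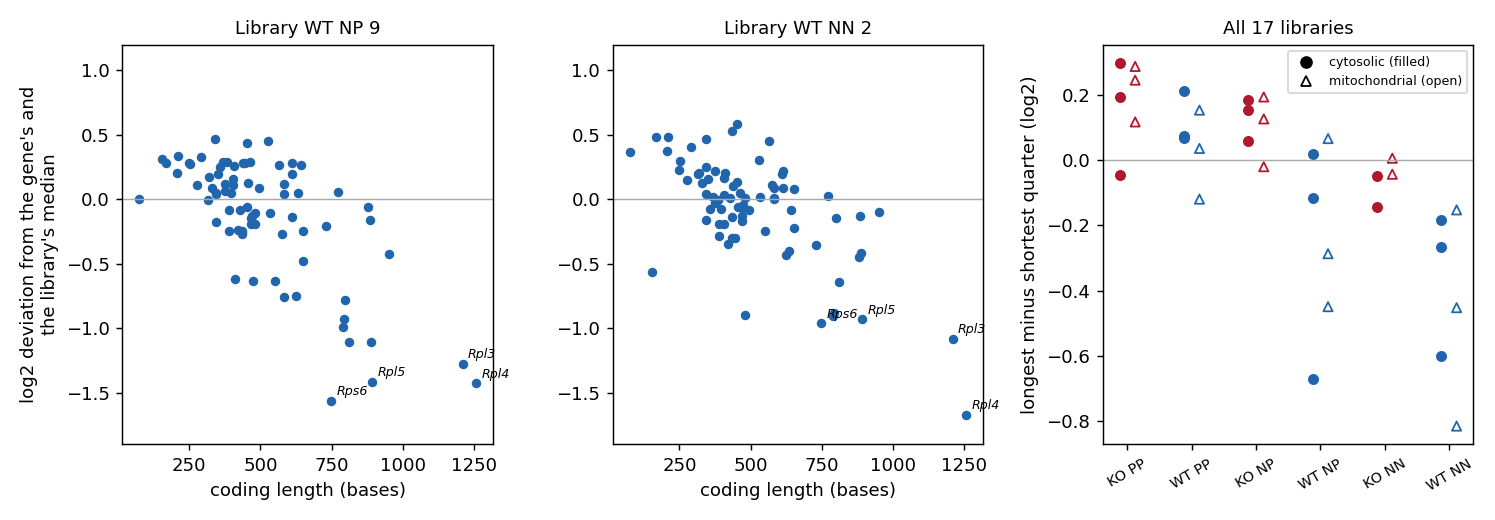
Left and middle: log2 deviation of each of 77 subunit genes from its own median over the libraries and from the median gene of the library, against coding length in bases, in WT NP library 9 and WT NN library 2. Right: the 21 longest minus the 21 shortest genes (log2) in every library, for cytosolic (filled circles) and, by the same split, mitochondrial ribosomal proteins (open triangles); red is KO and blue WT. Long genes lie low in both libraries, by 0.67 and 0.60 log2 units.

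The 10 paralogs and retrocopies differed widely in level. Rps27 encodes a zinc finger protein of the 40S subunit, and 2 further members resemble it: the retrocopy Rps27rt and the paralog Rps27l. The first 90 coding bases of the 3 genes are shown because their counts behaved differently; capitals mark bases that differ from Rps27, and the sequences are from GENCODE M21 transcripts on GRCm38. The genes lie at chr3:90212667-90213648 (Rps27), chr9:114982366-114982739 (Rps27rt) and chr9:66944624-66949522 (Rps27l).
Rps27: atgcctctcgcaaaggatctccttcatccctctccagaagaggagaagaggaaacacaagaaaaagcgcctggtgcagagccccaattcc
Rps27rt: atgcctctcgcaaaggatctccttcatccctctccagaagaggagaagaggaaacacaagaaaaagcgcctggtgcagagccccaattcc
Rps27l: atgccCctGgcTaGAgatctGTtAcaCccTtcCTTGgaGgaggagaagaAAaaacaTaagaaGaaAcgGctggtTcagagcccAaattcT

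Rps27rt differs from Rps27 at 0 of 252 coding bases, and its counts were 1.00 to 1.02 times those of Rps27 in every library. Reads of the 2 genes can therefore not be told apart, and any value of Rps27rt is also one of Rps27. Rps27l differs at 60 of 252 coding bases, shares no 50-base window with Rps27, and had 0.0635 to 0.162 times its counts. Rpl37rt likewise had 0.979 to 1.00 times the counts of Rpl37, so the calls of these 2 in WT PP over NN are 1 observation, not 2. Rps23rg1 had 0.745 to 0.824 times the counts of Rps23, and Rpl32l had 0.0884 to 0.117 times those of Rpl32.

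Other paralogs had counts apart from those of their parent genes. Rpl22l1 had 0.177 to 0.314 times the counts of Rpl22 in KO PP, 0.212 to 0.295 in WT PP, 0.185 to 0.254 in KO NP, 0.232 to 0.281 in WT NP, 0.234 to 0.287 in KO NN and 0.276 to 0.347 in WT NN. In PP, Rpl36al had more counts relative to Rpl36a than in NN: 0.537 to 0.972 times in KO PP, 0.578 to 0.767 in WT PP, 0.392 to 0.447 in KO NN and 0.381 to 0.411 in WT NN. The ratio was 0.512 to 0.624 in KO NP, also above KO NN, and 0.354 to 0.567 in WT NP, which overlapped WT NN. Rpl36a and Rpl36al encode a 60S protein of the same name in an X-linked and an autosomal gene. Rpl7l1, a nucleolar relative of Rpl7 that acts in ribosome assembly, had 37.2, 58.1 and 48.1 CPM in KO PP, 52.6, 57.4 and 40.7 CPM in WT PP, 51.9, 51.3 and 33.7 CPM in KO NP, 56.7, 66.4 and 41.3 CPM in WT NP, 36.6 and 37.2 CPM in KO NN, and 26.2, 32.3 and 38.7 CPM in WT NN. It lay higher in all 3 WT PP and all 3 WT NP libraries than in any WT NN library, without passing the threshold with TMM scaling (PP over NN 0.63 ± 0.27, edgeR adjusted p = 0.106). With library totals it passed in both contrasts (PP over NN 1.01, edgeR adjusted p = 0.0257; NP over NN 1.24, edgeR adjusted p = 0.0241).

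The remaining paralogs were at or near 0. Rpl10l, a retrogene of Rpl10 active in male germ cells, had 0 counts in every library. Rpl39l had 10 counts in KO PP library 22 and 0 in the others. Rpl3l, known from heart and skeletal muscle, had 12, 44 and 62 counts in KO PP, 16, 0 and 0 in WT PP, 2 and 1 in KO NN and 0 in all other libraries. It was filtered out of KO over WT in NN and in NP and was not called by edgeR in the other comparisons; since most libraries had 0, its fold change is not given.

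Other genes of the translation apparatus moved in different directions in WT PP over NN. Of 46 tested genes of ribosome biogenesis, 13 rose and 2 fell (edgeR), with a median of 1.10; over all genes 12.8% rose and 7.31% fell. Proliferation markers summed to 398 to 667 CPM in WT PP and 145 to 196 CPM in WT NN, and crypt stem and progenitor markers to 56.6 to 160 CPM in WT PP and 37.2 to 39.4 CPM in WT NN; their part was not tested. The genes that rose included Ddx21, a nucleolar RNA helicase of rRNA synthesis (2.22 ± 0.31, edgeR adjusted p = 9.02e-05), Gnl3, or nucleostemin (2.34 ± 0.35, adjusted p = 0.000177), and Ncl, or nucleolin (2.03 ± 0.31, adjusted p = 0.000228). Among 19 translation factors and other genes with TOP mRNAs, 3 rose and 1 fell, near the shares over all genes: Nap1l1 (2.26, edgeR adjusted p = 0.00031), Hnrnpa1 (1.96, adjusted p = 0.000777) and Pabpc1, the poly(A)-binding protein (0.93, adjusted p = 0.00852), rose, and the initiation factor subunit Eif3k fell (-0.82, adjusted p = 0.0147). Of the ribosomal proteins under other names, Fau, made as a fusion with a ubiquitin-like protein, fell (-0.91, edgeR adjusted p = 0.0215) and Rack1 did not pass (-0.46, edgeR adjusted p = 0.2). Of 77 mitochondrial ribosomal proteins, 21 fell and 0 rose, with a median of -0.61; Mrpl14 (-1.95, edgeR adjusted p = 0.00148) had the smallest p.

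Regulators gave few calls, read against the 12.8% of all genes that rose and the 7.31% that fell in WT PP over NN. Among 19 genes of TOP regulation and growth signalling, 2 rose in that contrast, the cap-binding factor Eif4e (0.99, edgeR adjusted p = 0.0153) and Larp4 (0.92, adjusted p = 0.0289). Among 13 genes of the ribosome stress response, 3 rose, Hbs1l (1.09, edgeR adjusted p = 0.0189), Ascc3 (1.09, adjusted p = 0.019) and the p53 ligase Mdm2 (2.93, adjusted p = 0.0254), and Ddit3 fell (-1.38, adjusted p = 0.00815). In KO PP over NN, where 6.52% of all genes rose and 3.77% fell, the same lists gave 2 higher and 1 lower for biogenesis (Ddx21 1.35 and Gnl3 1.52 higher, the rDNA transcription factor Ubtf -0.93 lower; edgeR adjusted p 0.0168, 0.0174 and 0.0356), 3 lower of 77 mitochondrial ribosomal proteins, 0 of 19 TOP factors (smallest edgeR adjusted p 0.067; 3 at an unadjusted p under 0.05), and 2 higher of 19 regulators, Eif4ebp1 (2.34, adjusted p = 0.00454) and Eif4e (1.17, adjusted p = 0.0224). In WT NP over NN, Ddx21 (1.74, edgeR adjusted p = 0.00458) and Ncl (1.23, adjusted p = 0.0386) rose, as did Nap1l1 (1.41, adjusted p = 0.0398). None of these lists held a called gene in KO over WT (smallest edgeR adjusted p 0.572 in NN, 0.219 in NP and 0.938 in PP). At an unadjusted p under 0.05, 15 of 77 mitochondrial ribosomal proteins were lower in KO in NN, 10 in NP and 1 in PP, where 4.79% of all genes were lower in NN, 3.26% in NP and 2.21% in PP.

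**Figure D5:**
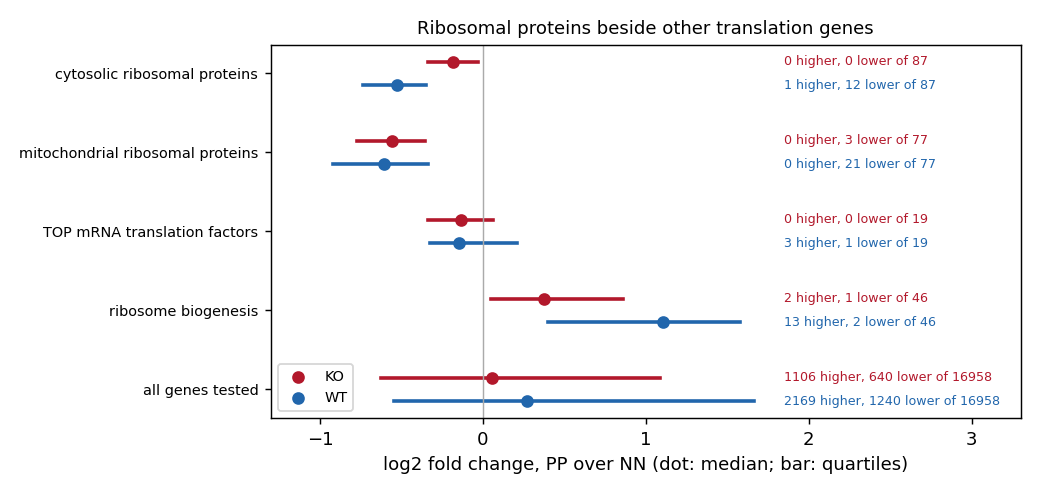
Median (dot) and quartiles (bar) of the log2 fold change of PP over NN in KO (red, upper of each pair) and WT (blue) for the members, 3 other lists of translation genes and all genes tested, with the number of genes called in each direction. In WT, the median of the members is -0.52 and that of ribosome biogenesis genes 1.10.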

How the data were processed

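RNA from 17 colon preparations was sequenced, with 29194744 to 37083344 counts per library. For each condition the authors deposited a table of raw counts by gene number (3 tables); per the submitters' processing notes, CASAVA 1.8.2, FastQC, Trim Galore, STAR 2.5.4, DESeq2 and build mm10 were used. The counting program, annotation and strand setting are not given in the sources used here, so reads of overlapping and antisense genes cannot be told apart. The libraries were mRNA libraries (Universal Plus mRNA-Seq, per the labels' protocols).

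Gene numbers were named with RefSeq (25275 of 27179) and GENCODE (18); the 1886 unnamed ones held 1.39 to 7.32% of counts and were kept in the tests. Nuclear counts leave out the 15 mitochondrially encoded genes, which took 23.1 to 50.4% of all counts. Counts were tested with the quasi-likelihood test of edgeR 4.0.16 (R 4.3.3) after filterByExpr and TMM scaling, with Benjamini-Hochberg adjustment over all genes tested and a threshold of 0.05. KO and WT of a condition were fitted on that condition's table alone (86 members tested in NN and NP, 87 in PP), the other contrasts in 1 fit of all 17 libraries (87 members). The SE is the size of the log2 fold change divided by the square root of F. On simulated counts for KO over WT in NP, genes changed 4-fold were called in 69.1% of 94 cases and those changed 2-fold in 14.9% of 94. For WT NP over NN the shares were 33.0% of 97 and 2.02% of 99. The changed genes were drawn at random from all genes tested, whatever their level, so these shares are not those of the members. Alternatives were library totals, TMM without the members, mitochondrial genes left out, no filter, DESeq2 1.42.0, each library left out, a fit of all libraries for the MCJ effect and a block by mouse number.

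The members, gene lists, markers and tests were chosen with earlier results of these data known. Named members are a fixed set with known roles, the 3 highest and 3 lowest of each comparison and up to 5 called ones by smallest p; the list genes are those called with the smallest p. Coding lengths come from GENCODE M21. Start-site windows come from RefSeq on GRCm38.p6. The counts give counting precision only, and error bars are over libraries. Values of some single genes are not reported here.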

Additional observations from a re-analysis of the deposited data

How the results depend on the processing

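Of 195 alternative values for counts of called members and for shares, 175 stayed within 1 SD (shares) or within 1.5 times (counts) and 20 moved. In groups of 2 or 3 libraries, leaving 1 out cannot shift the mean share by 1 SD, so those values could not move. Counts of 0 that stayed 0 were also taken as unmoved, so the 175 is no measure of stability. Of 721 alternatives for single genes, 60 lost a call, 8 gained one and 5 changed sign. In WT PP over NN, 13 members were called with TMM, 3 with library totals (2 higher, 1 lower), 20 without mitochondrial genes and 20 with DESeq2, the 13 among them in both, and 1 (without WT NN library 2) to 21 (without WT NN library 3) with a library left out. In KO PP over NN the count of 0 became 2 with library totals and 0 to 3 with a library left out (3 without KO PP library 24). In KO PP over NP it was 0 to 1 with a library left out (1 without KO PP library 24). In WT NP over NN it was 1 with library totals and 1 with DESeq2, and for the averaged MCJ effect 1 with DESeq2. With all counts as denominator the mean share of the members was 4.18% in KO PP and 4.42% in WT PP, 4.31% in KO NP and 5.27% in WT NP, and 5.78% in KO NN and 4.87% in WT NN, so the order of KO and WT turned round in NN. With a library left out it was 5.22 to 6.46% of nuclear counts in KO PP and 7.48 to 8.26% in WT PP, 7.26 to 7.52% in KO NP and 8.05 to 8.65% in WT NP, and 6.58 to 8.89% in KO NN and 8.00 to 9.07% in WT NN. The log2 fold changes that changed sign were Rpl4 in KO PP over NN (-0.014 with library totals), and with a library left out, in KO over WT, Rps6 in NP (-0.015 to 0.54), Rpl5 in NP (-0.067 to 0.44) and Rpl39 in PP (-0.35 to 0.64; -0.18 without WT PP library 11). The causes of these shifts were not tested. The mouse numbers 1 and 2 recur in KO NN, WT NN and KO NP. Same-numbered libraries did not deviate together (correlations over 16958 genes of -0.03 and -0.0345 for KO NN with WT NN, and -0.00717 and 0.0239 for KO NP with KO NN), so the numbers were not taken as pairs. The 2 KO NN libraries deviate from their mean by equal and opposite amounts, so the correlations of a contrast are not separate checks. They cannot tell whether a shared number stands for a shared litter or cage. A replicate block on the mouse numbers, added after the data were seen, left 0 members called in both contrasts, with medians of -0.60 and -0.22. No paired analysis was possible because the other groups compared share fewer than 2 numbers. The lowest count of any of the 77 subunit genes in any library was 118; the paralogs Rpl3l, Rpl10l and Rpl39l are too sparse at this depth for a comparison.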
